A study of Equus caballus with 4 samples.

Results

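Toll-like receptors, their co-receptors CD14 and LY96 and their adaptor MYD88 were followed in cultured equine satellite cells (ESC), which renew skeletal muscle by fusing into fibres. The members were 10 genes fixed by name: TLR1, TLR2, TLR3, TLR4, TLR5, TLR6, TLR10, MYD88, CD14 and LY96. Every probe carrying one of these symbols was taken, which gave 25 probes for 9 of the 10 genes, among 15233 gene symbols with a probe. TLR5 was not analysed here. Of the 9 genes, 7 had at least 1 probe well above background in the same channel on all 4 arrays and were tested, among 8891 tested symbols.

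Toll-like receptors are membrane proteins that recognise microbial molecules and molecules released by damaged cells. TLR2 acts at the cell surface with TLR1 or TLR6 and binds lipoproteins, TLR4 works with LY96 (MD-2) and CD14 and binds lipopolysaccharide, and TLR3 sits in endosomes and binds double-stranded RNA. MYD88 couples most of these receptors to IRAK kinases and NF-kB, whereas TLR3 signals through TICAM1 (TRIF). The receptors are best known from immune cells, and muscle cells also carry several of them.

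Cells from m. semitendinosus were compared on differentiation day 3. HMB (beta-hydroxy-beta-methylbutyrate, a leucine metabolite) was given at 50 µM for 24 h, with H2O2 at 3 mM during the last 1 h. Control cells received the same H2O2 but no HMB, so both groups carried the oxidant and no untreated cells entered the comparison. According to the methods, the muscle came from 6-month-old stallions, and 1 primary culture, picked for its viability and fusion, was carried forward, so the 4 arrays need not stand for different animals. Each of 4 two-colour arrays held HMB cRNA in Cy5 and control cRNA in Cy3, and a log2 ratio above 0 means more signal with HMB. The dyes were never swapped, so dye and treatment cannot be told apart. The labels call the arrays biological replicates but number the control extract 1 on every array, so the control may be the same RNA throughout and p-values measure only the spread between these 4 arrays.

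The 4 arrays gave alike profiles, with correlations of their log2 ratios between 0.837 and 0.92 over the 24670 tested probes. Between 55.2% and 61.8% of gene spots in a channel were well above background, and 0 spots were saturated. A probe was called when its adjusted p (limma, Benjamini-Hochberg over all tested probes) was 0.05 or less and it changed at least 1.3-fold. The median log2 ratio over all tested symbols was -0.08. Myogenic markers moved in these cells: 8 of 10 tested were called lower, among them the embryonic myosin MYH3 at a log2 ratio of -1.38 and desmin (DES) at -1.22, while MYOG stood at 0.03. Of the 6 fibroblast markers tested, 5 were called higher, up to PDGFRA at 1.49. Fewer cells of a type and less RNA per cell cannot be told apart in bulk RNA, and the part of this shift in the values that follow was not tested.

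The probes behind the results are given by the first 30 of their 60 bases, 5′ to 3′ on the transcript strand, with EquCab1 positions of the whole probe. They are shown because the calls of TLR2 and TLR3 rest on 1 probe each, and because TLR4, LY96, MYD88 and TLR1 have several probes. Capitals mark the run that a pair of overlapping probes share within the bases shown. Files used here do not mark exon, intron or UTR. Of the 25 member probes, 5 had a stop triplet in all 3 reading frames and cannot be wholly coding, among them the TLR3 and CD14 probes and TLR4 probe A_69_P001452. The longest run shared by probes of different members was 9 bases, between TLR1 and TLR6.
TLR3 probe A_69_P000826, chr27:23494185-23494244, minus strand: caggtgttccattgccaattaacttaattt
TLR2 probe A_69_P000236, chr2:65578050-65578109, minus strand: tgtcatttgaggccttgcttactaaaacga
TLR4 probe A_69_P001452, chrUn:203175350-203175409, plus strand: cctccctcctctttaaggcagtttccttat
TLR4 probe A_69_P001451, chrUn:203175410-203175469, plus strand: ggaaatctgattgatacatattcacaaaca
LY96 probe A_69_P001582, chr9:12505657-12505716, minus strand: acagctgtattgcagaggccgtcgttggga
CD14 probe A_69_P001306, chr14:35520884-35520943, plus strand: aggggagaagaatgaattgactcagattgc
MYD88 probe A_69_P109026, chr16:47105804-47105863, minus strand: ATTTTAGGAAACTATCTTTTACTACGGTtt
MYD88 probe A_69_P109027, chr16:47105806-47105865, minus strand: caATTTTAGGAAACTATCTTTTACTACGGT
MYD88 probe A_69_P126636, chr16:47107526-47107585, minus strand: atcaagtacaaggcaatgaagaaagagttc
TLR1 probe A_69_P006326, chr3:81844692-81844751, plus strand: GTCTGCACATtgttttcccgacaagaaagg
TLR1 probe A_69_P006327, chr3:81844672-81844731, plus strand: tcgacaccttaacacagagaGTCTGCACAT

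TLR2, TLR3, TLR4, LY96 and MYD88 were higher with HMB, and TLR1 and CD14 did not pass the threshold. By each gene's brightest tested probe, 5 of the 7 tested members were called higher and 0 lower, with a median log2 ratio of 0.88. Over all tested symbols 10.5% were called higher and 17.1% lower. By probe, 13 of the 18 tested member probes were called higher and 0 lower, beside 12.1% higher among all tested probes. Those 13 probes belong to 5 genes and many overlap, so they are not 13 separate results. TLR2 and TLR4 probe A_69_P001451 were tested through the HMB channel alone, since none of their control signals was well above background. Such probes enter the counts only because they are high with HMB. With both channels required on all arrays, 4 of 6 members were called higher and 0 lower, beside 2546 of 22653 probes called higher. The members were chosen with earlier results of these data known, so the counts only describe them.

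**Figure D1:**
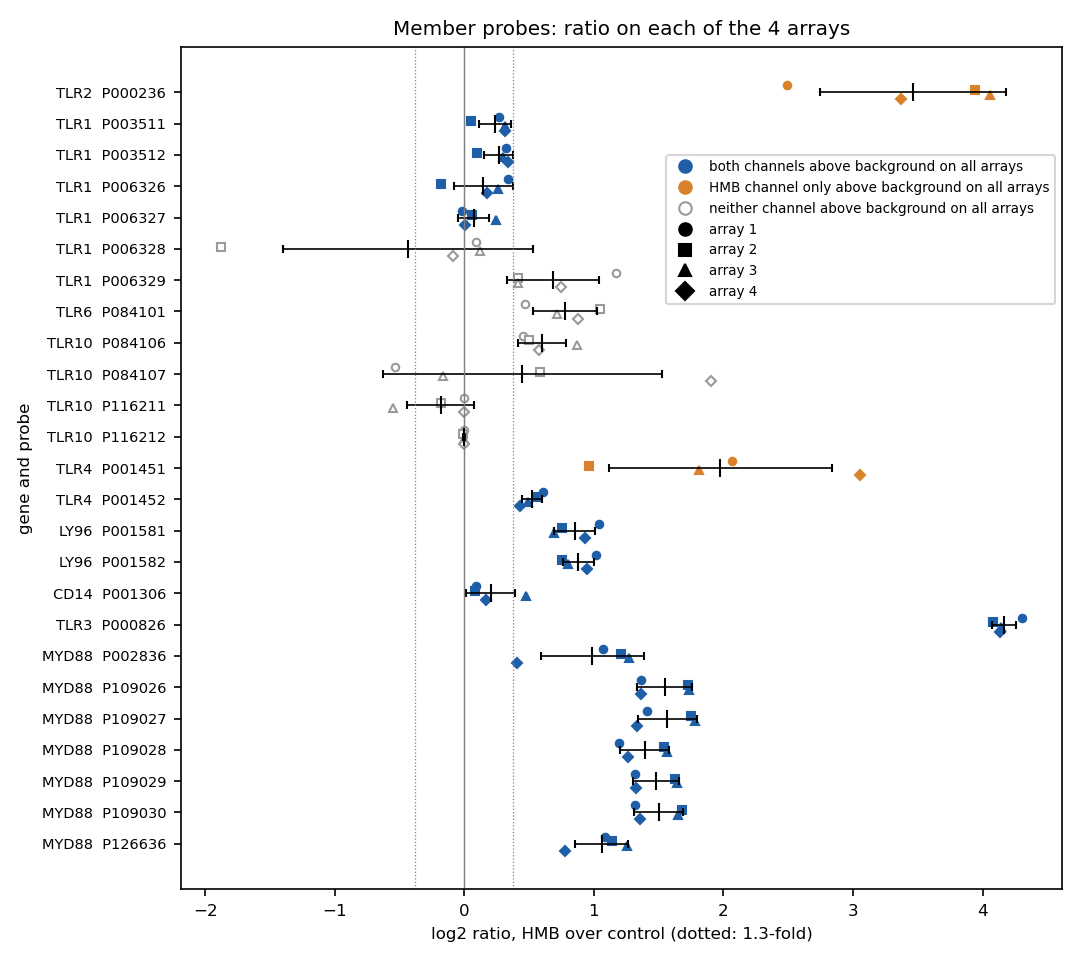
Log2 ratio of HMB over control for each of the 25 member probes (rows) on each of the 4 arrays (marker shapes), with the mean as a black tick and the SD as a bar, and dotted lines at 1.3-fold. TLR3 lies between 4.08 and 4.30 on all arrays, TLR2 between 2.49 and 4.06, and MYD88 probes between 0.40 and 1.78, while CD14 and the 4 tested TLR1 probes lie between -0.18 and 0.48.

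TLR3, the endosomal receptor for double-stranded RNA, had the largest mean ratio of the members whose channels were both well above background on all arrays. TLR2 has only a bound, so TLR2 and TLR3 are not ordered. Its log2 ratio was 4.30, 4.08, 4.14 and 4.13 on arrays 1 to 4. The control signals were 36.0, 35.5, 62.3 and 40.6 and the HMB signals 710, 601, 1101 and 714, in arbitrary units after the authors' background subtraction and dye normalization. Both channels were well above background on all 4 arrays, and the highest control signal lay far under the lowest HMB signal. The mean was 4.17 ± 0.10 (SD, n = 4), a 17.9-fold difference (adjusted p = 8.92e-07, limma). TLR3 ranked 26 of 8891 symbols by its ratio and 3 by its adjusted p. With other background treatments the ratio was smaller and stayed called: 2.86 without background correction and 2.33 with normexp.

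The genes most like TLR3 were sought by the root mean square difference of the 4 log2 ratios, over the 8882 symbols with 4 ratios. NMES1 came first at 0.196, with a mean log2 ratio of 4.01. The cytokine IL6 followed at 0.233 (mean 4.32). UBA7, the activating enzyme for the ubiquitin-like ISG15, differed by 0.234 (mean 4.34), with its control channel not well above background on any array. The acute-phase protein SAA1 differed by 0.237 (mean 4.01) and the monocyte chemokine CCL2 by 0.277 (mean 4.28). This likeness is over 4 arrays of 1 comparison and describes the size of the ratios only.

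TLR2, the lipoprotein receptor, was seen in the HMB channel only. The HMB signals were 67.1, 77.9, 145 and 72.8 on arrays 1 to 4, all well above background. The control signals were 11.96, 5.06, 8.68 and 7.05, and none was well above background. The 4 log2 ratios of 2.49, 3.94, 4.06 and 3.37 had a mean of 3.47 ± 0.72 (SD, n = 4; adjusted p = 1.66e-04, limma). A ratio over a channel at background gives no measured fold. Set against the lowest control signal that counted as well above background, the bound for TLR2 was 4.11-fold higher with HMB. Bounds compare the mean HMB level with the mean, per array, of the higher of that lowest signal and the probe's own, after Aquantile scaling of the dye-normalized channels, and are open to dye bias. That lowest signal is taken over all probes of an array, and some probes with higher signals were not marked well above background. A bound is thus a guide from the deposited signals, not a strict limit. The log2 ratio of TLR2 was 1.00 without background correction and 0.63 with normexp, both below its bound and still called.

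The partners of TLR2 gave little. TLR1, which pairs with TLR2 for triacylated lipoproteins, had 6 probes, and 4 were tested. Its brightest probe, A_69_P003511, gave control signals of 525, 493, 637 and 531 and HMB signals of 633, 511, 791 and 660. HMB was higher on each array, but the groups overlapped. The mean log2 ratio was 0.24 ± 0.13 (SD, n = 4; 95% interval 0.0628 to 0.41; adjusted p = 0.0361, limma), 1.18-fold and so below the threshold of 1.3. The neighbouring probe A_69_P003512 gave 0.26 (adjusted p = 0.0215, limma), also below 1.3-fold. The overlapping probes A_69_P006326 and A_69_P006327, 1738 to 1822 bases nearer the 5′ end, gave 0.15 and 0.07 and did not pass the adjusted p. The intervals of the first pair and, barely, of A_69_P006326 (up to 0.381) reach above 1.3-fold, 0.379 on the log2 scale. A rise of that size was not excluded for these probes. The interval of A_69_P006327 ended at 0.244.

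TLR6, which pairs with TLR2 for diacylated lipoproteins, had 1 probe that was not well above background in either channel on any array. Its signals were 11.6 to 16.1 in the control channel and 20.4 to 26.5 in the HMB channel, and no fold is given. TLR10, the least understood receptor of this family, had 4 probes and none was tested. Probes A_69_P084106 and A_69_P084107 were each well above background on 1 array per channel, and A_69_P116211 and A_69_P116212 on none. TLR6, TLR1 and TLR10 are neighbours on the plus strand of chromosome 3, with probes at chr3:81811137-81811196, between 81844613 and 81846613, and between 81865311 and 81867378. Of the 11 probes in this stretch 4, all TLR1, were tested, and none of these was called. With spike-in scaling TLR1 probe A_69_P006327 was called lower, at -0.41 (adjusted p = 0.00598, limma).

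**Figure D2:**
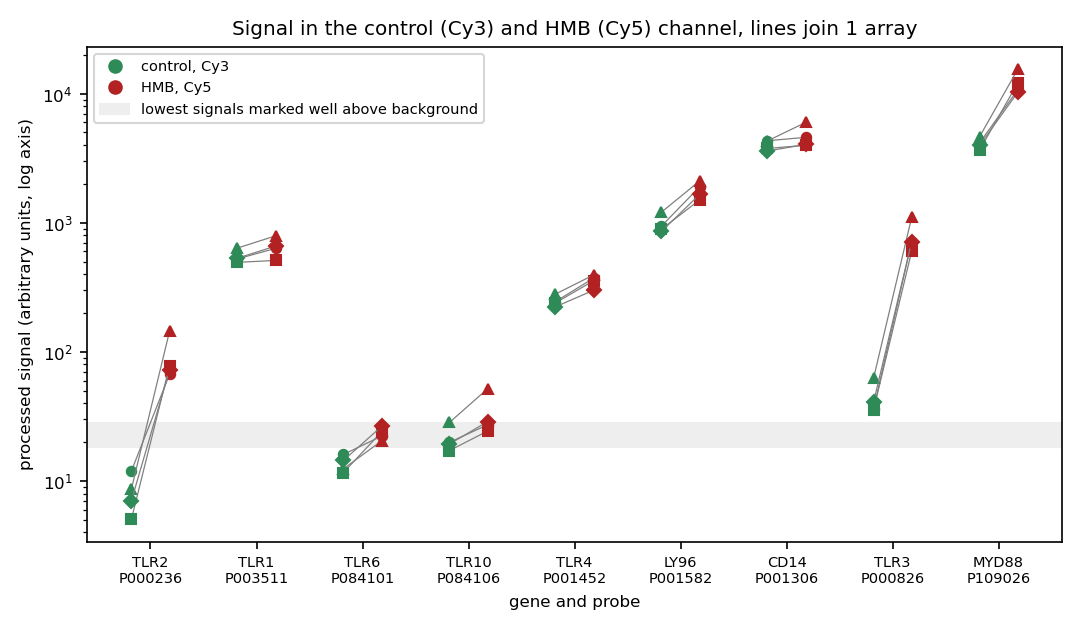
Processed signal (log axis, arbitrary units) in the control channel (Cy3, green) and the HMB channel (Cy5, red) for 1 probe per gene, with lines joining the channels of 1 array. The grey band spans the lowest signals marked well above background on the arrays, 18.3 to 28.1. TLR2 crosses the band from control to HMB on all 4 arrays, whereas TLR3 starts above it. Levels of different probes are not comparable.

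TLR4, the lipopolysaccharide receptor, was called higher by both of its probes, which sit end to end. Probe A_69_P001452 gave control signals of 245, 240, 280 and 223 and HMB signals of 373, 356, 394 and 300. The lowest HMB signal lay above the highest control signal. Its log2 ratios were 0.60, 0.57, 0.49 and 0.43, with a mean of 0.52 ± 0.08 (SD, n = 4; adjusted p = 0.00122, limma), 1.44-fold. Probe A_69_P001451 gave control signals of 8.98, 14.4, 16.5 and 7.03, none well above background, and HMB signals of 37.6, 28.2, 58.2 and 58.4, all well above it. For that probe the bound from the deposited signals, again not a strict limit, was 2.09-fold higher with HMB. The mean log2 ratio was 1.97 ± 0.86 (SD, n = 4; adjusted p = 0.00298, limma). With scaling to the spike-in RNA the ratio of A_69_P001452 was 0.04 and no longer called, limma's treat against 1.3-fold also ended its call (adjusted p = 0.196), and A_69_P001451 lost its call with normexp and with the methods' t-test. The probes' ratios were 0.49 (A_69_P001452) and 0.50 (A_69_P001451) without background correction and 0.38 and 0.20 with normexp, so no order between them is given.

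LY96, the MD-2 protein that holds lipopolysaccharide against TLR4, was higher by both of its probes. The brighter probe, A_69_P001582, gave control signals of 941, 891, 1208 and 858 and HMB signals of 1900, 1503, 2106 and 1657. The groups did not overlap. Its log2 ratios were 1.01, 0.75, 0.80 and 0.95, with a mean of 0.88 ± 0.12 (SD, n = 4; adjusted p = 2.41e-04, limma), 1.84-fold. The second probe, A_69_P001581, present in 5 spots and sharing 29 bases with the first, gave 0.85 (adjusted p = 4.21e-04, limma).

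CD14, the co-receptor that hands lipopolysaccharide to TLR4 and LY96, was measured well above background in both channels. Its control signals were 4315, 3761, 4300 and 3593 and its HMB signals 4583, 3978, 5983 and 4035. The groups overlapped, and array 3 held the highest HMB signal. The log2 ratios were 0.09, 0.08, 0.48 and 0.17, with a mean of 0.20 ± 0.19 (SD, n = 4; 95% interval -0.0048 to 0.41; adjusted p = 0.0966, limma). CD14 was not called, and its interval also reaches above 1.3-fold. With the spike-in scaling, which lowers all ratios by 0.372 to 0.567, the mean of CD14 turned to -0.28 and that of TLR1 to -0.25.

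MYD88, the adaptor shared by most of the receptors, was called higher by all 7 of its probes, of which A_69_P002836 lost its call with the methods' t-test (adjusted p = 0.051). Its brightest probe, A_69_P109026, gave control signals of 4150, 3645, 4627 and 3967 and HMB signals of 10680, 12060, 15370 and 10210. Each HMB signal was above every control signal. The log2 ratios were 1.36, 1.73, 1.73 and 1.36, with a mean of 1.55 ± 0.21 (SD, n = 4; adjusted p = 7.08e-05, limma), 2.92-fold. The 5 probes designed on the transcript model JL619941 overlap one another by 14 to 59 bases and gave mean log2 ratios from 1.39 to 1.57. The other two, designed on ENSECAT00000002299 and lying at least 1357 bases nearer the 5′ end on the genome, gave 0.99 (A_69_P002836) and 1.06 (A_69_P126636). On A_69_P002836 array 4 stood at 0.40 against 1.07 to 1.27 on the others. With normexp this pair gave mean log2 ratios of 0.40 (A_69_P002836) and 0.56 (A_69_P126636), still called. The JL619941 probes exceeded the other pair on 4 of 4 arrays, by 0.47 ± 0.21 on the log2 scale (exact two-sided sign permutation p = 0.125, the smallest 4 arrays allow). The pair was far dimmer, with mean control signals of 64.4 (A_69_P002836) and 101.5 (A_69_P126636) against 3266 to 4097 for the JL619941 probes. The cause of this gap was not tested.

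**Figure D3:**
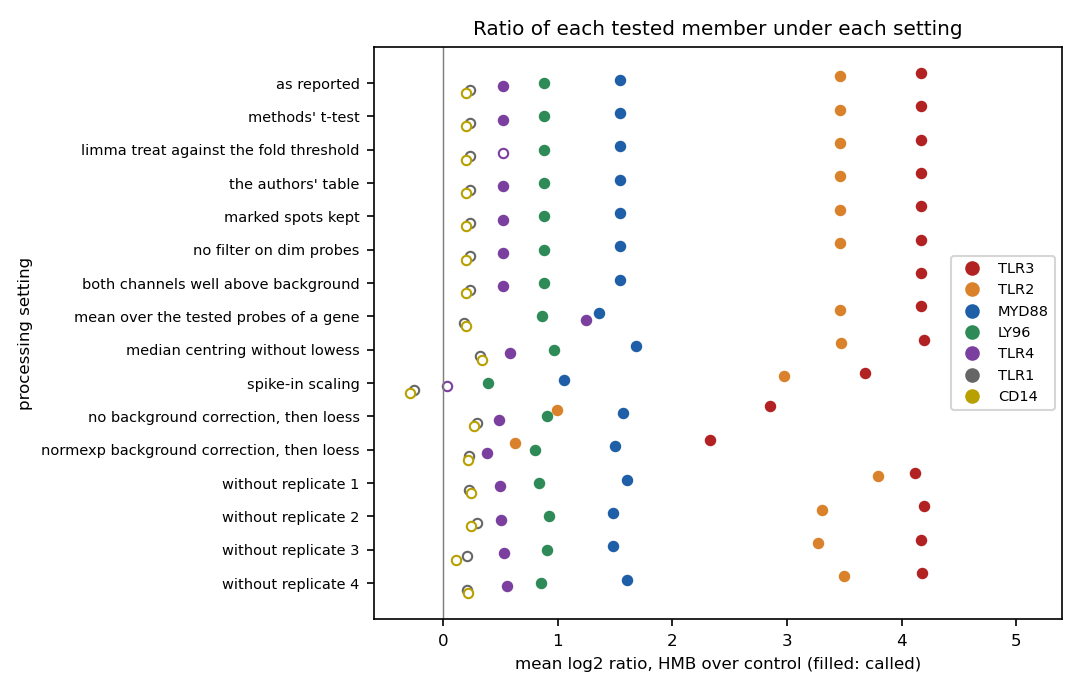
Mean log2 ratio of HMB over control for the 7 tested members (colours) under each processing setting (rows), with filled points where the gene was called. TLR3, TLR2, MYD88 and LY96 were called under every setting that gave them a value, TLR4 lost its call under 2 settings, and TLR1 and CD14 were never called.

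Around the members, 75 further genes of the pathway were listed by role. Of these, 60 had a probe and 45 were tested, and 30 were called higher, 1 lower and 14 not called. With spike-in scaling 20 were called higher and 10 lower. Some listed genes were tested through the HMB channel alone, and with both channels required 37 were tested, 25 called higher and 1 lower. Beside the reported counts stands the share of 10.5% higher and 17.1% lower over all tested symbols. The lists were chosen with earlier results of these data known, so the counts only describe the listed genes. Named genes are those with the largest called changes of each list unless stated.

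Of the other receptors, TLR9, the endosomal receptor for unmethylated CpG DNA, was called higher at a log2 ratio of 0.40 ± 0.19 (SD, n = 4; adjusted p = 0.0116, limma), 1.32-fold and so near the threshold. TLR9 was not called under 8 of the alternative settings. TLR7 and TLR8, receptors for single-stranded RNA, were not well above background in either channel on any array. Of 8 genes for ligand transfer and receptor trafficking, 4 were tested, and 1 was called. That gene was UNC93B1, the chaperone that carries TLR3 and other nucleic acid receptors to endosomes, at 0.98 ± 0.35 (SD, n = 4; adjusted p = 0.00184, limma).

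Among adaptors and kinases 15 of 22 were tested, with 8 called higher and 1 lower, and a median log2 ratio of 0.39. With spike-in scaling 3 were called higher and 5 lower, and with normexp 3 higher and 1 lower. TICAM2 (TRAM), which links TLR4 to TICAM1, gave 1.295 ± 0.166 (SD, n = 4; adjusted p = 8.58e-05, limma). MAP3K8, a kinase upstream of ERK, was not well above background in the control channel on any array. It was called higher with HMB (adjusted p = 0.00195, limma), with a bound of 2.56-fold from the deposited signals. MAP3K7 (TAK1), the kinase between TRAF6 and NF-kB, was the gene called lower, at -0.66 ± 0.16 (SD, n = 4; adjusted p = 0.00124, limma). TICAM1, named here after its value was seen because TLR3 signals through it, gave 0.46 (adjusted p = 0.0039, limma). TIRAP, which bridges TLR2 and TLR4 to MYD88 and was named in the same way, gave -0.29 and was not called (adjusted p = 0.0852, limma).

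Among negative regulators 7 of 15 were tested and 5 were called higher, with a median log2 ratio of 0.61. NFKBIA, the inhibitor that holds NF-kB in the cytoplasm, gave 2.04 ± 0.21 (SD, n = 4; adjusted p = 2.36e-05, limma). TRAFD1, a brake on Toll-like receptor signalling, gave 1.87 ± 0.21 (SD, n = 4; adjusted p = 3.17e-05, limma). Of 11 transcription factors 7 were tested and 5 were called higher, with a median of 0.90. IRF7 gave 3.45 ± 0.23 (adjusted p = 3.27e-06, limma) and IRF1 gave 1.74 ± 0.11 (adjusted p = 1.22e-05, limma; SD, n = 4 for both), and both are factors of interferon responses.

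Of 16 target genes 11 were tested and 10 were called higher, with a median log2 ratio of 3.62. The chemokine CCL20 gave 6.77 ± 0.20 (adjusted p = 6.98e-07, limma). CXCL10, an interferon-induced chemokine, gave 6.18 ± 0.37 (adjusted p = 1.62e-06, limma; SD, n = 4 for both). TNF, the 1 tested target not called, had a log2 ratio of 0.02 with a 95% interval of -0.18 to 0.22. With spike-in scaling 10 target genes were called higher and 1, TNF, lower.

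**Figure D4:**
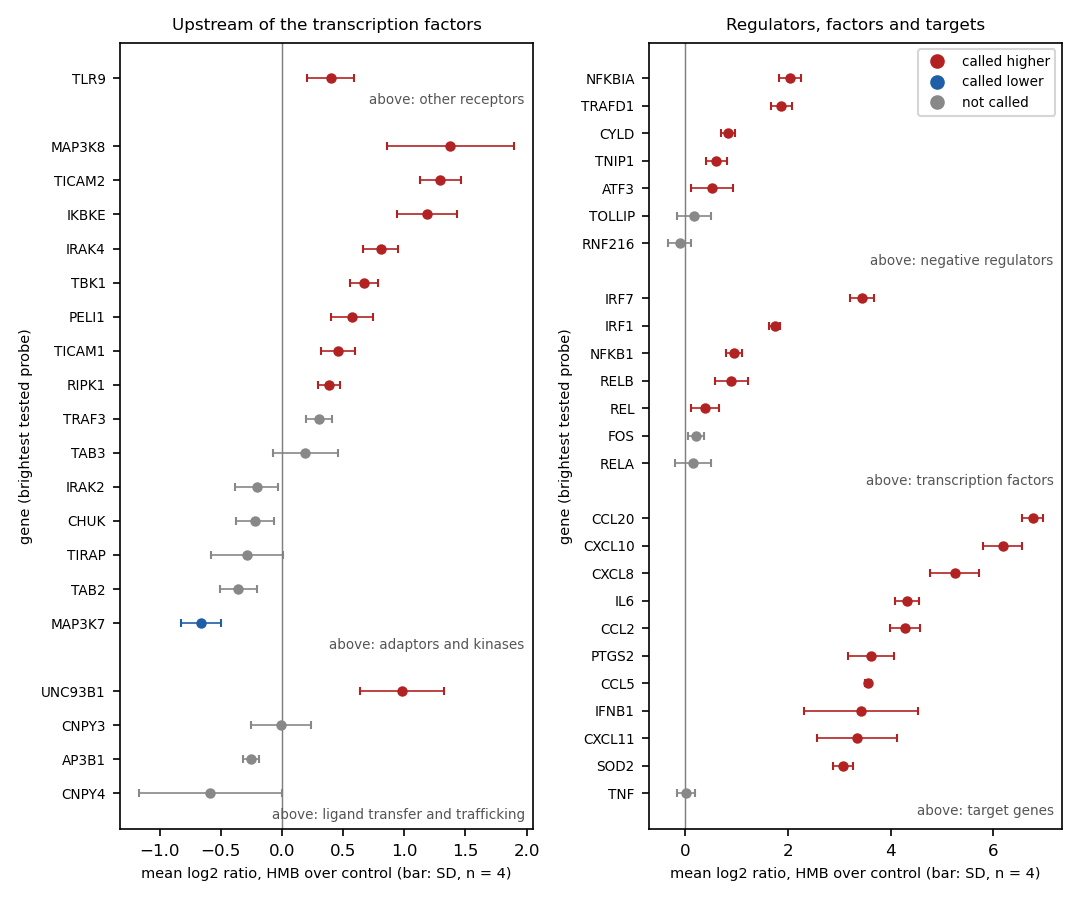
Mean log2 ratio of HMB over control (points) with its SD over 4 arrays (bars) for the 45 tested pathway genes, grouped by role and coloured by call. The target genes reach 6.77, with TNF near 0, while adaptors and kinases lie between -0.66 and 1.38. The upper end is MAP3K8, which has only a bound because its control channel was not well above background on any array.

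Markers of cells that carry Toll-like receptors in abundance were read in the same way. Of 12 macrophage and monocyte markers 6 had a probe and only CD68 was tested, with a log2 ratio of 0.88 (adjusted p = 6.30e-04, limma). ITGAM, AIF1, MRC1 and TYROBP were not well above background in either channel on any array. CSF1R was well above background on 1 array in the control channel and on 0 in the HMB channel. It was not tested, and its log2 ratios went the other way from CD68, from -1.65 to -0.59. The summed signal of the list was 111 to 147 in the control channel and 141 to 235 in the HMB channel. Of 6 neutrophil markers 5 had a probe, and S100A12 was called higher with its control channel not well above background, while CSF3R, MPO, S100A8 and S100A9 were at background in both channels. Their sums were 47.6 to 69.6 and 129 to 152. None of 5 endothelial and 4 adipocyte markers with a probe was tested, with sums of 43.7 to 83.3 and 49.9 to 80.9 for the endothelial list and 42.5 to 70.3 and 39.4 to 57.6 for the adipocyte list. The lymphocyte markers CD3E, CD2 and CD79A were not well above background in either channel on any array, and CD3D, with both channels above it, stood at -0.04 on the log2 scale and did not pass the test (adjusted p = 0.708, limma). The summed signal of the myogenic list was 248200 to 270600 in the control channel and 94720 to 146300 in the HMB channel, and that of the fibroblast list 287300 to 348500 and 279100 to 434600.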

How the data were processed

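Labelled RNA of HMB and control cells was hybridised in pairs to 4 Agilent horse arrays on 1 slide. Per the file headers, spots were read with Feature Extraction 10.10.1.1 and probes placed on EquCab1. The authors deposited, per spot, background-subtracted and dye-normalized (lowess) channel signals as intensity, and a log10 ratio of Cy5 over Cy3. A deposited table holds the same log10 ratios, with 4 to 6 probe means per array differing by over 0.01 on the log2 scale once marked spots were left out. Log10 ratios were converted to log2 of the deposited ratio. Left out were control spots and the 13 to 35 gene spots per array flagged non-uniform or outlying, and spots of a probe were averaged. A probe was tested when 1 channel was well above background on all 4 arrays and at least 3 ratios remained. limma 3.58.1 (R 4.3.3) fitted the mean ratio, with Benjamini-Hochberg adjustment over 24670 probes. Scripts were tested on simulated data. Array number limits the precision.

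Genes carry the files' symbols, and 425 probes without one were named through RefSeq accessions (TB-T2T table, used for names only). A gene is given by its brightest tested probe. Named pathway genes are the 2 largest called rises and falls of each list with 1 direction on all arrays. The result of 1 marker gene is not reported here. Members and lists were chosen with earlier results of these data known. Alternatives tried: treat in limma, a t-test as in the methods (the methods' t-test), 2 other background treatments, median centring, spike-in scaling, the authors' table, 2 other filters on dim probes, marked spots kept, averaging probes, and leaving out each array.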

Additional observations from a re-analysis of the deposited data

Results flagged for a closer look

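Among the 25 member probes, 4 had 1 array far from the other 3 by Dixon's test for 4 values, which chance alone gives in about 1 of 20 groups. In 3 of them, all TLR1, it was array 2 that stood low: its log2 ratio was 0.0493 on A_69_P003511, 0.0977 on A_69_P003512 and -1.88 on A_69_P006328. On A_69_P006328, which was not tested, the control signal of array 2 was 102 against 38.9 to 47.0 on the others. In TLR10 probe A_69_P116212 array 2 was at -0.0084 where the other arrays had a ratio of exactly 0, and both channels were at background on all 4 arrays.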

How the results depend on the processing

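The count of called probes, 7046 as reported, was 2822 with limma's treat against 1.3-fold, 4440 without background correction, 3539 with normexp and 18571 with spike-in scaling. Leaving out 1 array gave 6663 to 7366 probes, 5 members each time, and 29 to 30 pathway genes against 31. Calls were 42.5% higher as reported, 54.6% with treat, 60.1% without background correction, 55.0% with normexp and 6.71% with spike-in scaling. Spike-in scaling moved the median of all tested probes from -0.07 to -0.56. It turned TLR1 to -0.25 (A_69_P003511), -0.22 (A_69_P003512), -0.34 (A_69_P006326) and -0.41 (A_69_P006327, called lower), and CD14 to -0.28, it took LY96 probe A_69_P001581 below 1.3-fold (0.36), and it left 20 pathway genes called higher and 10 lower. Called adaptors and kinases, 9 as reported, 8 of them higher, were 5 with treat, all higher, 4 with normexp, 3 of them higher, and 3 higher and 5 lower with spike-in scaling, called negative regulators, 5 as reported and all higher, were 3 with treat, normexp and spike-in scaling, 1 of the last lower, and called transcription factors, 5 as reported, were 3 with normexp. Called trafficking genes, 1 as reported, were 1 higher and 1 lower without array 1 and with median centring, and 1 higher and 3 lower with spike-in scaling. Under the 11 other settings than leaving out an array, 4 to 7 members were called, each higher. The 7 came without the filter on dim probes, where TLR6 (0.78, adjusted p = 0.0252, limma) and TLR10 (0.60, adjusted p = 0.0246, limma) were added although neither channel was well above background on all arrays. TLR2 was not tested where both channels had to be above background, since its control channel was at background. By the methods' t-test 5 members were called, and the single probes MYD88 A_69_P002836 (adjusted p = 0.051) and TLR4 A_69_P001451 (adjusted p = 0.0575) lost their calls. The causes of these moves were not tested. Each ratio sets HMB against control within 1 array, so the reported fit pairs the channels of a hybridisation. The control may be the same RNA throughout, so no pairing of cultures is implied.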
